A study of Mus musculus with 9 samples.

Results

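The genes described here are 50 mouse genes of the cell cycle and of DNA replication, chosen by name: 28 act in G2 and mitosis (G2/M) and 22 act at the G1 to S transition and in replication (G1/S). All 50 symbols were found in the gene annotation, and 49 of them were listed in both deposited tables, among 13259 genes that the tables share. The exception was *Nusap1*, a microtubule-binding protein of the mitotic spindle, which stood in neither table, so 27 G2/M and 22 G1/S members carry values.

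RNA was sequenced from AML12 cells, a line of mouse hepatocytes first grown from a mouse with a TGF-alpha transgene, in 3 groups of 3 libraries. One group carried a lentiviral control hairpin, and the others carried shRNA 1 or shRNA 2 against *Srrm2*, which encodes a scaffold protein of nuclear speckles. All cells were cultured in serum with an insulin, transferrin and selenium supplement and dexamethasone, and were collected on day 5 of infection. No source used here says whether the libraries of a group came from separate cultures, or what the control hairpin targets.

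The values used are 2 pooled means per gene. The first is the authors' mean normalized count over the control and shRNA 1 libraries (the shRNA 1 table), and the second is that over the control and shRNA 2 libraries (the shRNA 2 table), each covering 6 libraries. A pooled mean mixes control and knockdown cells, so it gives the level of a gene but no change from control to knockdown, and no error between replicates. *Srrm2* itself had pooled means of 3428 and 3759, from which its knockdown cannot be read. The tables were set side by side as the ratio of the shRNA 2 to the shRNA 1 table mean, divided by its median over 7757 genes with means of at least 100 (1.048). This scaled ratio compares the hairpin groups only in part, because control libraries enter both means. If the same controls entered both tables, the hairpin groups differ by more than the ratio shows, and if other controls did, the ratio also holds a difference between controls. The labels of all 3 control libraries name the shRNA 1 table, but those of only 1 name the shRNA 2 table, so the sharing of controls was not established. Where no value per library is given there is no test, and counts over the members and their classes are set beside the same share over all genes, which serves as the background for the smaller groups too. The depth of the libraries is unknown.

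A cell that is to divide first commits in G1, when cyclin D and then cyclin E kinases release the E2F factors, which switch on the genes for replication. The MCM helicase is loaded at origins by Cdc6 and Cdt1 and then unwinds the DNA, while ribonucleotide reductase and thymidylate synthase supply the building blocks. Mitotic genes follow later, when B-Myb and FoxM1 act with the MuvB complex at a short promoter element, the cell cycle genes homology region (CHR), often near CCAAT boxes bound by NF-Y. In resting cells the DREAM complex holds both classes down. Hepatocytes of an adult liver rarely divide, whereas a cultured hepatocyte line does, and *Mki67* and *Top2a* are common markers of dividing cells.

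The promoters of 4 members are printed first, since they show the elements that were searched for. They are the G2/M members with the 3 lowest scaled ratios among those holding both a CHR and a CCAAT box in the 120 bases before the start site, and *Mcm6*. Of the G1/S members, only *Mcm6* held an E2F word in those 120 bases. Its stretch is therefore not typical of the class. Each run is the stretch before the start site, 5′ to 3′ on the strand of the gene, from the RefSeq promoter table of build GRCm38.p6. Capitals mark the CHR word TTTGAA, the CCAAT box CCAAT and the E2F words TTTCCCGC, TTTCGCGC, TTTGCCGC and TTTGGCGC, read on either strand, so TTCAAA and ATTGG are marked as well. The windows are chr19:37376262-37376381 on the plus strand for *Kif11*, chr7:80294356-80294475 on the plus strand for *Prc1*, chr4:118437344-118437463 on the minus strand for *Cdc20* and chr1:128359706-128359825 on the minus strand for *Mcm6*.
Kif11: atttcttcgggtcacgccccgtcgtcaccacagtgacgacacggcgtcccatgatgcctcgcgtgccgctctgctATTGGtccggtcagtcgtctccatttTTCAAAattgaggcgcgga
Prc1: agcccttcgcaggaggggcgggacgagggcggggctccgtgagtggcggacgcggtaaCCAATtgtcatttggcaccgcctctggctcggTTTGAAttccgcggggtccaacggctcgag
Cdc20: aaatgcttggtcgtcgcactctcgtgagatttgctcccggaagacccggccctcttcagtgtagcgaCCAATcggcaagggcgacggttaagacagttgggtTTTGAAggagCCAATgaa
Mcm6: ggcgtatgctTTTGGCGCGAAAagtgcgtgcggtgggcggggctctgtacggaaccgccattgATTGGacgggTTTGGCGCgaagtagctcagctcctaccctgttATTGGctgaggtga
In all 3 G2/M promoters a CCAAT box lies upstream of the CHR, and *Cdc20* has another downstream of it. *Prc1* has a second start site in the table, whose window holds both elements as well. The *Mcm6* window holds no CHR, and its first run of capitals is an overlap of the E2F words TTTGGCGC and TTTCGCGC, the latter on the opposite strand.

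Levels of different genes were compared per length, as the pooled mean normalized count per kilobase of exon. In the shRNA 1 table, 30 of the 49 members stood above the median of all listed genes, which was 43.1 per kilobase. Of the same members, 25 stood above the median of the shRNA 2 table, which was 44.8. The G1/S members were spread over a far wider range than the G2/M members, from 2.15 to 3421 against 18.8 to 162 per kilobase in the shRNA 1 table. Their medians per kilobase in that table were 79.4 for G1/S and 54.6 for G2/M. The 27 G2/M members together held 0.133% of the summed means of the shRNA 1 table and 0.104% of those of the shRNA 2 table. For the 22 G1/S members the shares were 0.353% and 0.330%, most of it *Ccnd1*.

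**Figure D1:**
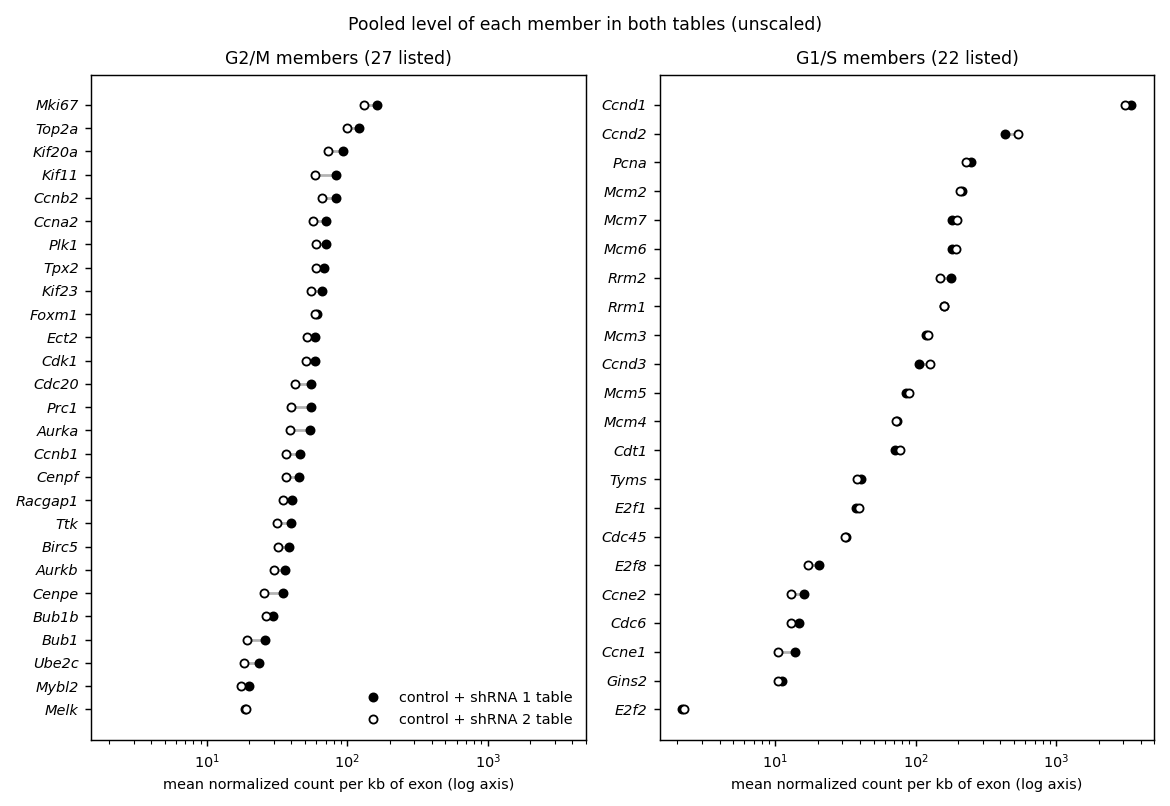
Pooled mean normalized count per kilobase of exon (log axis, unscaled) of the 27 listed G2/M members and the 22 listed G1/S members, with filled points for the shRNA 1 table and open points for the shRNA 2 table. The open point lies left of the filled point for each G2/M member but *Melk*, whereas G1/S members such as *Ccnd2*, *Ccnd3*, *Mcm6* and *Mcm7* have the open point on the right.

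The cells expressed hepatocyte genes. All 12 hepatocyte markers were listed in both tables, with *Krt18*, a keratin of simple epithelia, the highest per kilobase at 7034 in the shRNA 1 table. Pooled means of *Alb*, which encodes albumin, were 2151 and 1814. Their scaled ratios ran both ways, from 0.661 for *Fgb*, a fibrinogen chain, to 1.28 for *Serpina1a*, an antitrypsin gene. The part of these differences in those of the cell cycle genes was not tested. None of 4 endothelial markers was listed. Of 6 fibroblast and stellate markers 2 were listed, *Col1a1* with pooled means of 3.85 and 3.99 and *Des* with 8.03 and 5.67, and *Dcn* and *Pdgfrb* were not. Among 6 leukocyte markers the defining gene *Ptprc* was low, at 5.30 and 5.47, and *Adgre1*, named *Emr1* in the annotation, was not listed, while *Cd14*, which hepatocytes also express, reached 490.5 and 526. The bile duct keratin gene *Krt19* was abundant, at 2851 and 2753, and 3 of 4 cholangiocyte markers were listed, *Epcam* being the exception.

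The G2/M members as a group were lower in the shRNA 2 table. All 27 had a scaled ratio below 1, with a median of 0.778, against a median of 1.003 over 11451 genes with means of at least 10 in both tables. Counted as lower where the ratio was below 1/1.1, 25 of 27 G2/M members (92.6%) were lower, against 17.5% of all genes. The exceptions were *Foxm1* and *Melk*. Over all 49 members 34 were lower in this sense, and 2, both D-type cyclins, were higher by a ratio above 1.1, against 18.4% of all genes. Members with a ratio above 1 numbered 6 of 49, against 51.2% of all genes. Without scaling that number was 11, against 68.5% of all genes, and the 5 added were *Melk*, *Mcm3*, *Rrm1*, *E2f1* and *E2f2*. Among the 27 G2/M members, 18 had ratios below 0.809, the 5th percentile of all genes, and 4 of the 22 G1/S members did. In bulk samples such as these, fewer dividing cells and less RNA per dividing cell cannot be told apart.

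**Figure D2:**
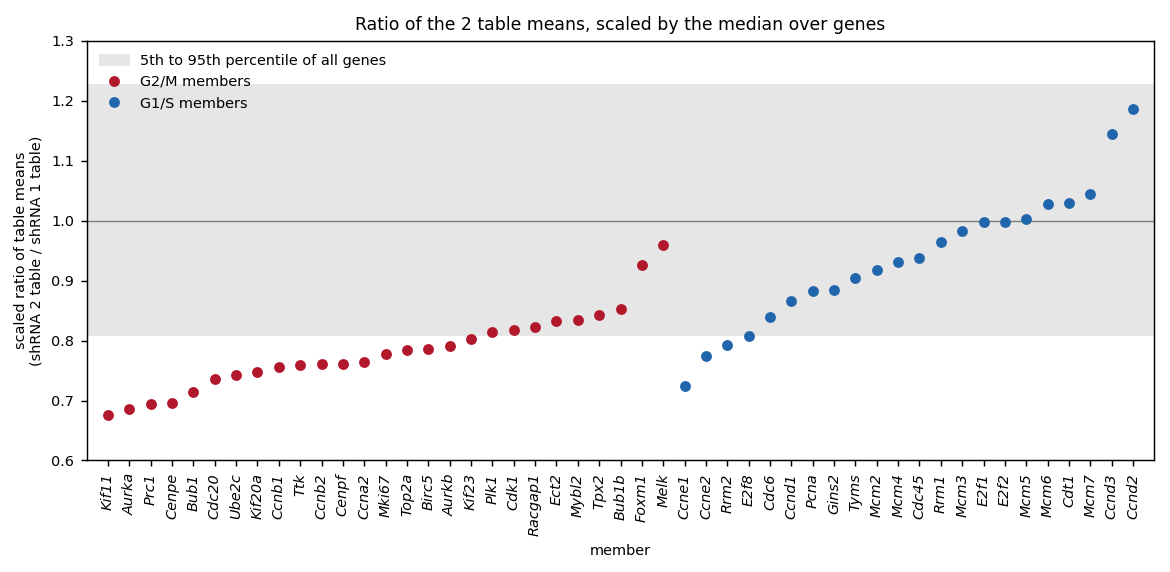
Scaled ratio of the shRNA 2 table mean to the shRNA 1 table mean for each of 49 members, ordered within the G2/M (red) and the G1/S (blue) class; the grey band spans the 5th to the 95th percentile of all genes, 0.809 to 1.23. The G2/M members run from 0.675 to 0.960, all below 1, and the G1/S members run from 0.725 to 1.19 on both sides of it.

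Mitotic cyclins and their kinase were all lower in the shRNA 2 table. *Ccnb1*, the cyclin that drives entry into mitosis, had pooled means of 195 in the shRNA 1 table and 155 in the shRNA 2 table, a scaled ratio of 0.757. Its relative *Ccnb2* had means of 128 and 102, with a ratio of 0.761. *Ccna2*, the cyclin of S phase and G2, had 247 and 198, with a ratio of 0.765. The 3 cyclins thus differed between the tables by nearly the same factor. *Cdk1*, their catalytic partner, had means of 203 and 174 and a ratio of 0.818, closer to 1 than those of the cyclins.

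Of the 7 mitotic and checkpoint kinases, 6 were below 1/1.1. *Aurka*, which matures centrosomes and builds the spindle, was the lowest of them, with means of 138 and 99.4 and a ratio of 0.686. Among kinases of the spindle checkpoint, *Bub1* had a ratio of 0.713, *Ttk*, the gene of Mps1, 0.759 and *Bub1b*, that of BubR1, 0.852. *Aurkb*, the kinase of the chromosomal passenger complex, had means of 106 and 87.7, a ratio of 0.792. *Plk1*, a kinase needed from mitotic entry to cytokinesis, had means of 155 and 132, a ratio of 0.814. *Melk*, a kinase commonly expressed with mitotic genes, was the exception: its means of 55.9 and 56.2 gave a ratio of 0.960, and unscaled it was slightly higher in the shRNA 2 table. Both partners of the anaphase-promoting complex were lower too. *Cdc20*, which activates the anaphase-promoting complex, had means of 103 and 79.1, and *Ube2c*, the ubiquitin-conjugating enzyme of that complex, had 61.3 and 47.6, with ratios of 0.736 and 0.742.

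Genes of the spindle and of cytokinesis held the lowest ratio of all members. *Kif11*, the motor that pushes the spindle poles apart (mm9 chromosome 19, 37450893 to 37496349), had means of 401 and 284 and a ratio of 0.675. *Prc1*, which bundles microtubules at the spindle midzone, had means of 449 and 327 and a ratio of 0.694. *Kif20a*, a motor of the midzone, had 360.3 and 282 with a ratio of 0.747. All 7 members of this group were below 1/1.1. The others lay above the median of the class, 0.778: *Kif23*, the motor subunit of centralspindlin, at 0.802, its partner *Racgap1* at 0.823, *Ect2*, the exchange factor that the complex recruits for furrowing, at 0.832, and *Tpx2*, which activates Aurora A on the spindle, at 0.843.

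The group of mitotic chromosomes and kinetochores held the 2 most abundant G2/M transcripts, *Mki67* and *Top2a*. Its other members, *Cenpf*, *Birc5* and *Cenpe*, had 45.6, 38.6 and 34.8 per kilobase in the shRNA 1 table, below the G2/M median of 54.6. *Mki67*, the gene of the Ki-67 proliferation antigen (mm9 chromosome 7, 142881471 to 142908062), had means of 1629.5 and 1329. Its level of 162 per kilobase in the shRNA 1 table stood at the 84.0th percentile of all listed genes, and its scaled ratio was 0.778. *Top2a*, the topoisomerase that untangles sister chromatids, had means of 1103 and 906 and a ratio of 0.784. These most abundant members thus lay at about the median ratio of the class. *Cenpe*, a kinetochore motor, had means of 272 and 198 and the lowest ratio of the group, 0.695. *Cenpf*, a large kinetochore protein, had 518 and 413, a ratio of 0.761, and *Birc5*, the gene of survivin, a passenger complex subunit, had 132 and 109, a ratio of 0.786. All 5 were below the 5th percentile of all genes.

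The transcription factors of the G2/M genes differed less than most of the class. *Foxm1* had means of 333 and 323, a ratio of 0.926, and *Mybl2*, which encodes B-Myb, had 92.5 and 80.9, a ratio of 0.834. Of the 27 members only *Melk* had a ratio nearer to 1 than *Foxm1*. *Ccnb1*, *Plk1* and *Cdc20*, genes that these factors are known to act on, all had lower ratios than either factor. Not every member of the class did. *Tpx2* at 0.843 and *Bub1b* at 0.852 lay above *Mybl2*, and *Melk* at 0.960 lay above both factors.

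The G1/S members lay on both sides of 1, with more of them below it. Their median ratio was 0.935, with 16 of 22 below 1 and 6 above. Past the fold, 9 of 22 (40.9%) were below 1/1.1, against 17.5% of all genes, and 2 (9.09%) were above 1.1, against 18.4% of all genes.

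The G1 cyclins held both ends of that spread. *Ccnd1*, cyclin D1, was the most abundant member (mm9 chromosome 7, 152115836 to 152125774). Its means were 13118 and 11918, at the 99.8th percentile of all listed genes per length in the shRNA 1 table, and its scaled ratio was 0.867. *Ccnd2*, cyclin D2 (mm9 chromosome 6, 127075797 to 127101066), went the other way, with means of 2469 and 3069 and a ratio of 1.19. *Ccnd3*, cyclin D3, had means of 238 and 286 and a ratio of 1.14. The 3 D-type cyclins, which activate the same kinases, thus differed in direction between the tables. Both E-type cyclins, which act at the entry to S phase, were lower: *Ccne1*, with means of 36.5 and 27.8, had the lowest ratio of the G1/S class, 0.725, and *Ccne2*, with 55.7 and 45.1, had 0.773. They were also far less abundant than the D-type cyclins, at 13.7 and 15.9 per kilobase in the shRNA 1 table against 3421, 433 and 106.

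None of the 6 subunits of the MCM helicase was past the fold in either direction, where 18.4% of all genes were above 1.1 and 17.5% below 1/1.1. Among genes with means of at least 100, which all 6 had, the shares were 13.8% and 14.8%. Their median ratio was 0.992. *Mcm6*, with means of 786 and 848, and *Mcm7*, with 799 and 875, had ratios of 1.03 and 1.04. *Mcm5* had means of 299 and 314 and a ratio of 1.002, and *Mcm3* had 352 and 362 with a ratio of 0.982. *Mcm4*, at 264 and 257, and *Mcm2*, at 721 and 693, had the lowest ratios, 0.931 and 0.917. The direction of *Mcm3* depended on the scaling, since its unscaled mean was higher in the shRNA 2 table. All 6 were well expressed, at 73.5 to 214 per kilobase in the shRNA 1 table, above the median of all genes in both tables.

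Genes of origin licensing and firing were split. *Cdt1*, which loads the helicase, had means of 156 and 168 and a ratio of 1.03. *Cdc6*, which loads it together with Cdt1, had means of 77.2 and 68.0 and a ratio of 0.840. *Cdc45* and *Gins2*, both parts of the active helicase, had means of 71.4 and 70.3 and of 45.9 and 42.6, with ratios of 0.938 and 0.885. The licensing partners *Cdt1* and *Cdc6* thus lay on opposite sides of 1.

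At the fork and in nucleotide supply, 3 of 4 members were lower. *Rrm2*, the small subunit of ribonucleotide reductase, had means of 492 and 409 and a ratio of 0.793. *Rrm1*, its large subunit, had means of 630.3 and 638 and a ratio of 0.965. The 2 subunits of this one enzyme therefore differed between the tables by unequal factors. *Pcna*, the sliding clamp, had means of 588 and 544, a ratio of 0.882, and *Tyms*, thymidylate synthase, had 247 and 234, a ratio of 0.904.

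The E2F factors were among the less abundant members. *E2f1*, an activator of replication genes, had means of 118 and 124 and a ratio of 0.997. *E2f2*, a second activator, was the lowest of all members, at 10.5 and 11.0, with a ratio of 0.997 that rests on few reads. *E2f8*, an atypical E2F that represses such genes, had means of 110.5 and 93.5 and a ratio of 0.807. Only the repressor was past the fold.

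A further 64 cell cycle genes that are no members were examined by the same measures, and 62 of them were listed in both tables. Of these 26 were below 1/1.1, against 17.5% of all genes, and 1, *Lin37*, a MuvB subunit, was above 1.1, against 18.4%. The 15 listed genes of mitosis in this set had a median ratio of 0.788, and 12 of them were below 1/1.1. The lowest were *Sgol1*, the gene of shugoshin, which protects centromeric cohesion, at 0.673 and *Hmmr*, a spindle protein gene, at 0.690. *Cks2*, a small Cdk-binding protein gene, was the only one above 1, at 1.0485. The 21 listed genes of replication had a median of 0.935, equal to that of the G1/S members to 3 digits, and 7 of them were below 1/1.1. *Dbf4*, the activator of the Cdc7 kinase, was lowest at 0.722 and *Rfc3*, a clamp loader subunit, was highest at 1.08.

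*Cdkn1a*, the gene of the Cdk inhibitor p21, was the most abundant inhibitor at 571 per kilobase in the shRNA 1 table, with means of 1270 and 1227 and a ratio of 0.922. Of 6 listed inhibitors 2 were below 1/1.1, *Cdkn2d* being the lowest at 0.836. Among 8 interphase Cdks and their regulators, both genes below 1/1.1 were Cdc25 phosphatases, *Cdc25c* at 0.734 and *Cdc25b* at 0.765. The third one, *Cdc25a*, which acts at G1/S, had the highest ratio of this set, 1.09. Pocket proteins and MuvB subunits had a median of 0.946 over 7 genes, from *Rbl1* at 0.909 to *Lin37* at 1.13. Of 5 other E2F genes, *E2f7*, the other atypical E2F, was lowest at 0.771 and *E2f3* was highest at 1.01.

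**Figure D3:**
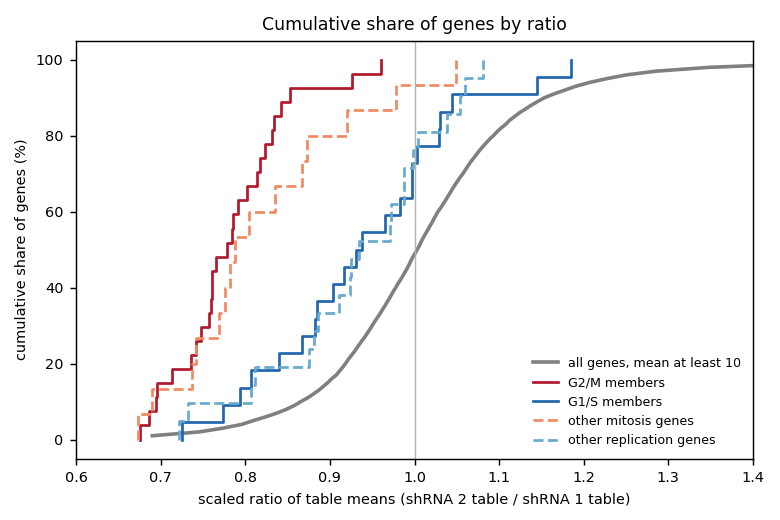
Cumulative share of genes (%) against the scaled ratio of the table means, for all genes with means of at least 10 (grey), the G2/M and the G1/S members (solid) and the other mitosis and replication genes (dashed). The other mitosis genes, with a median of 0.788, lie close to the G2/M members at 0.778, and the other replication genes lie close to the G1/S members, both with a median of 0.935.

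The CHR and E2F words were also unequally shared between the classes, while the CCAAT box was common in both. The matches come from sequence alone, though the members were chosen with earlier results of these data known. An entry of the RefSeq table, from 250 bases before to 50 bases after a start site in build GRCm38.p6, was matched by symbol for 40 of 50 members, 23 of G2/M and 17 of G1/S. The CHR word was found in 16 of 23 G2/M members (69.6%) and in 4 of 17 G1/S members (23.5%). It was found in 20.2% of all 27025 genes with an entry and in 14.4% of the 9064 of them that were listed in both tables. The CCAAT box was found in 19 of 23 G2/M members (82.6%) and in 12 of 17 G1/S members (70.6%). Its share was 41.1% of all genes and 43.5% of those listed in both tables. E2F words showed the opposite split, in 7 of 17 G1/S members (41.2%) and 1 of 23 G2/M members (4.35%). Their share was 2.61% of all genes and 4.76% of those listed in both tables, so the G2/M share was near that of listed genes. Every G2/M member with the CHR word also had a CCAAT box, and so did all 4 G1/S members with the word. Among genes listed in both tables, 1309 had the CHR word and 660 had both elements. Both were found in 7.28% of these listed genes and in 8.97% of all genes.

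Among G2/M members the word was found at *Aurka*, *Bub1b*, *Ccnb2*, *Cdc20*, *Cdk1*, *Cenpf*, *Ect2*, *Kif11*, *Kif23*, *Mki67*, *Plk1*, *Prc1*, *Racgap1*, *Top2a*, *Ttk* and *Ube2c*. It was not in the windows of *Birc5*, *Bub1*, *Ccnb1*, *Cenpe*, *Melk*, *Mybl2* and *Nusap1*, and *Cdk1* was the G2/M member with an E2F word. At G1/S members the E2F words were found at *Cdc6*, *Cdt1*, *E2f2*, *Mcm3*, *Mcm5*, *Mcm6* and *Mcm7*, and the CHR word at *Cdc45*, *E2f2*, *E2f8* and *Mcm2*. These are matches of letters within one window per start site, and no binding was measured.

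**Figure D4:**
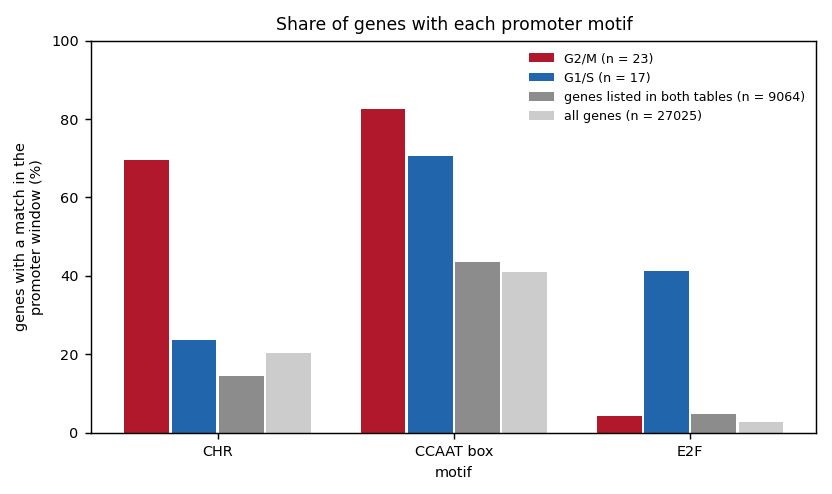
Share of genes (%) with a match to the CHR word, the CCAAT box or an E2F word in the promoter window, for 23 G2/M members, 17 G1/S members, 9064 genes listed in both tables and all 27025 genes with an entry. The CHR bar is highest for G2/M members, at 69.6%, and the E2F bar is highest for G1/S members, at 41.2%.

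Within the G2/M class the ratio varied little with these elements. The 16 members with both CHR and CCAAT box had a median ratio of 0.769, from 0.675 to 0.852, and the 6 listed members without the CHR word had 0.771, from 0.695 to 0.960. Among listed genes that are no members, 570 had both elements, with a median ratio of 0.988, and 22.6% of them were below 1/1.1. The 6848 without the CHR word had a median of 1.01, and 16.2% were below 1/1.1. Within G1/S, the 7 members with an E2F word had a median ratio of 1.002, and the 10 without one had 0.910. The 7 include *Mcm3*, *Mcm5*, *Mcm6* and *Mcm7*, all subunits of the MCM helicase. Among listed genes that are no members, the 391 with an E2F word had a median of 1.002, and 19.9% were below 1/1.1. The 7584 without one had a median of 1.004, and 16.8% were below 1/1.1. The median GC content of the windows was 58.7% for G2/M members, 59.3% for G1/S members and 52.8% over all genes. The 2 classes thus differed little from each other in base composition, but both were richer in GC than all genes. The motif shares were not adjusted for this.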

How the data were processed

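Poly(A)-enriched, strand-specific libraries of AML12 cells (3 groups of 3) were sequenced. The authors mapped reads to mm9 with TopHat2, used HTSeq to count uniquely mapped reads over the genes of GENCODE M1 and DESeq2 1.8.2 to compare each hairpin with control, as the submitters' processing notes and the methods say. The deposited signal used here is the authors' mean normalized count per gene over the libraries of a table. The other 5 value columns of each table (fold change, its standard error, the statistic, the p-value and the adjusted p-value) are the authors' own comparisons and were not used, so no value per library, replicate error, test or depth is given.

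All 13643 identifiers of the tables were found in GENCODE M1 (build NCBIM37, the same as mm9). Scripts in Python 3.11.15 (pandas 2.3.3, numpy 2.4.6) divided means by kilobases of merged exon, formed the ratio of the table means, divided it by the median ratio over genes with means of at least 100 (1.048) and counted ratios above 1.1 or below 1/1.1 where both means were at least 10. The scaling step returned set factors put on the shRNA 1 means without noise, and the exon merging was checked on a small example. Promoters came from the RefSeq table of GRCm38.p6 and gene positions from mm9, and no coordinate was converted. Reads of near-identical copies cannot be told apart in such counts.

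The members and lists were chosen with earlier results of these data known. All 50 members are named, with *Srrm2* and, of each other list, its highest and lowest genes by level or by ratio, apart from a marker not reported here; *Alb*, *Cdc25b*, the leukocyte, fibroblast and cholangiocyte genes named and the split of ratios by promoter element were added after their values were seen. So were the 4 printed promoters and the share among listed genes.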

Additional observations from a re-analysis of the deposited data

How the results depend on the processing

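Of 25 alternative values, 21 stayed within 1.5 times the count reported. At a fold of 1.2 in place of 1.1, 0 members were higher in the shRNA 2 table in place of 2, against 6.44% of all genes. At that fold 26 in place of 34 were lower, against 6.63% of all genes. With means of at least 100 in both tables, 34 members remained, of which 22 were lower, against 14.8% of all genes; fewer members could be counted. Without scaling of the tables, 11 members in place of 6 had a higher mean in the shRNA 2 table, against 68.5% of all genes, and 31 were lower past the fold, against 10.2%. In the last 150 bases of the promoter entries, 0 G2/M members in place of 1 held an E2F word, against 1.45% of all genes. The word at *Cdk1* lies farther upstream. The CHR word was still held by 16 of 23 G2/M members (69.6%) and 4 of 17 G1/S members (23.5%). Its share fell from 20.2% to 9.23% of all genes, and from 14.4% to 5.69% of genes listed in both tables. No paired analysis was possible because the tables hold no value per library, and for the same reason no replicate was left out. Table means lie closer together than the hairpin groups if they share control libraries, and a ratio of them carries no replicate error, so a difference of a few percent, as for the MCM genes, cannot be read as a difference or as its absence.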
